A study of Mus musculus with 24 samples.

Results

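Solute carrier (Slc) genes were 115 of the 6970 genes measured in heat-shocked mouse embryos. A gene was a member if its symbol began with Slc and a number, or with Slco, and its probe carried that 1 symbol; Slc2a1 was not included. On slide type 1 there were 66 Slc genes among 3838, on slide type 2 there were 62 among 4075, and 13 were on both, which gave 128 values. Over both slide types 11 genes were amino acid transporters (families Slc1, Slc3, Slc7 and Slc38), 15 were mitochondrial carriers (Slc25), 12 were metal transporters (Slc30 and Slc39) and 77 were of other families. Slc9a3r1 met the rule by its symbol, although it encodes a scaffold protein and no transporter. A further 7 probes that carried an Slc symbol beside another symbol were not used.

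Mouse embryos in culture were heated at 43 °C for 15 min, put back at 37 °C and taken 1 h later, and their total RNA was hybridised in 1 channel of an array against RNA of embryos kept at 37 °C in the other. The 24 arrays came from 3 numbered treatments, each with 4 arrays on each of 2 slide types that carry different probes, 2 for each order of the channels. Both groups were cultured embryos; the sources used here give neither strain, age nor the number of embryos per group, and the drug-treated embryos and the later time that the labels also describe were not analysed here. The labels leave unsaid whether each treatment had litters of its own. The p-values therefore measure the spread between these 3 treatments, which may be technical, and their small number limits the precision.

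Solute carriers are membrane proteins that move amino acids, sugars, ions, metals, nucleosides, vitamins and metabolites across the plasma membrane or the membranes of organelles, either down a gradient or coupled to the movement of an ion. In the embryo they carry nutrients from the culture medium or the yolk sac into cells. Sodium-coupled amino acid transporters of the Slc38 family are known to be regulated under amino acid shortage and osmotic stress, Slc25 carriers link the mitochondrial matrix with the cytosol, and Slc30 and Slc39 proteins lower and raise cytosolic zinc, respectively.

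Values are the authors' log ratios, for which the base of the log and the numerator are not stated. With base 2 a log ratio of 1 would be a 2-fold difference, and with natural logs a 2.72-fold one. The sign was turned on arrays with the heated RNA in channel 2, so that a positive value means more RNA in heated embryos only if the deposited ratio was channel 1 over channel 2; otherwise every positive value below is negative and every negative one positive. The heat shock protein gene Hspb1, on slide type 2, had a mean log ratio of 2.23 ± 0.05 (SD, n = 3 treatments) and Hsph1, on slide type 1, of 2.28 ± 0.50, and both were positive on 12 of 12 arrays. On slide type 2 the lowest correlation between arrays of 1 channel order was −0.34 over all probes. The sources do not settle the direction, because they do not state the numerator, and it is given as a side, positive or negative. A gene is called when its limma p, adjusted by Benjamini-Hochberg over all genes of its slide type, is under 0.05.

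The largest Slc values were Slc38a2 and Slc38a1 on the negative side, both of slide type 2, and Slc35e1 on the positive side of slide type 1. As background to these genes, the 250 bases before the start site are shown for the most negative and the most positive member and for Slc39a8, the 1 called positive member with the heat shock motif searched for below. They are from RefSeq (GRCm38.p6), written 5′ to 3′ on the gene's strand, with matches to a motif in capitals.
Slc38a2, chr15:96699729-96699978, minus strand, no match to the 3 motifs: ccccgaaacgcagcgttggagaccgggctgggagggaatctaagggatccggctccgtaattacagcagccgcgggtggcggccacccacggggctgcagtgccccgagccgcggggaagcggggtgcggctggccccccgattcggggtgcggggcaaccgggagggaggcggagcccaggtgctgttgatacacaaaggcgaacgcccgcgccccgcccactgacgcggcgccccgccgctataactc
Slc35e1, chr8:72492615-72492864, minus strand, capitals the core of a metal response element from base −22: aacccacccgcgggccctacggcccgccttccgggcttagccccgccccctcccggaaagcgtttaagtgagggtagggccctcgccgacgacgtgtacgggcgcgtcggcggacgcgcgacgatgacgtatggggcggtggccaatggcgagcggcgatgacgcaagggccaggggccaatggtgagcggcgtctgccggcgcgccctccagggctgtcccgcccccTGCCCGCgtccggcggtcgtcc
Slc39a8, first of its 2 listed starts, chr3:135825029-135825278, plus strand, capitals the heat shock motif from base −86: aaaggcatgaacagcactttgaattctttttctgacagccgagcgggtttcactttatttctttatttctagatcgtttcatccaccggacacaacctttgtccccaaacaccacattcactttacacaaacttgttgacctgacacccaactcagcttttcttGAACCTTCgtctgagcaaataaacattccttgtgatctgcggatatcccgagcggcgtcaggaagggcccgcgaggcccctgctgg

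The motifs were searched on both strands in 300 bases (250 before the start and 50 after it), which were listed for 86 of the 115 members. The letters GAANNTTC, a pair of inverted GAA units of the longer element that heat shock factor trimers bind, were in 8 members, 9.3% against 9.04% of 27025 RefSeq genes. These were Slc1a3, Slc20a1, Slc29a1, Slc30a3, Slc38a4, Slc39a8, Slc6a13 and Slco2b1. The letters were in 1 of 10 called positive members and 0 of 15 called negative ones; Slc35e1 and Slc25a3 count under both. The metal response element core TGCNCNC was in 54 members (62.8% against 53.6%), with 6 of 10 called positive and 11 of 15 called negative ones among them. The amino acid response element TGATGNAAT was in 0 of 86, against 1.08% of all genes. A match is a description of the letters and no site. An absence holds for these 300 bases alone, and elements elsewhere in a gene were not searched.

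On slide type 1 few Slc genes differed between heated and control embryos beyond the spread of the treatments. Of 66, 2 were called positive (3.03%), against 5.73% of all genes of the slide type, and 3 were called negative (4.55%), against 5.65%. The positive ones were Slc35e1 and the mitochondrial phosphate carrier Slc25a3, and the negative ones were Slc35a4, the lactate and pyruvate transporter Slc16a1 and the nucleoside transporter Slc29a2. The median of the 66 was −0.041, against −0.038 for all genes, and 13 had an unadjusted limma p under 0.05. On slide type 2, 10 of 62 were called positive (16.1%), against 18.5% of all genes, and 17 were called negative (27.4%), against 31.9%. The median of the 62 was −0.023, against −0.049 for all genes. With the sign turned these counts are 3 positive and 2 negative on slide type 1, and 17 positive and 10 negative on slide type 2. Centring each array on the probes with 1 symbol instead of on all probes changed the split on slide type 2 to 19 positive and 10 negative. Over all genes of the slide type 2110 were then called, against 2052. Their split by side is not given here, so the Slc split cannot be set against it. With centring on all probes, each of the 4 shares of called Slc genes was somewhat below that of all genes, a difference that was not tested.

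**Figure D1:**
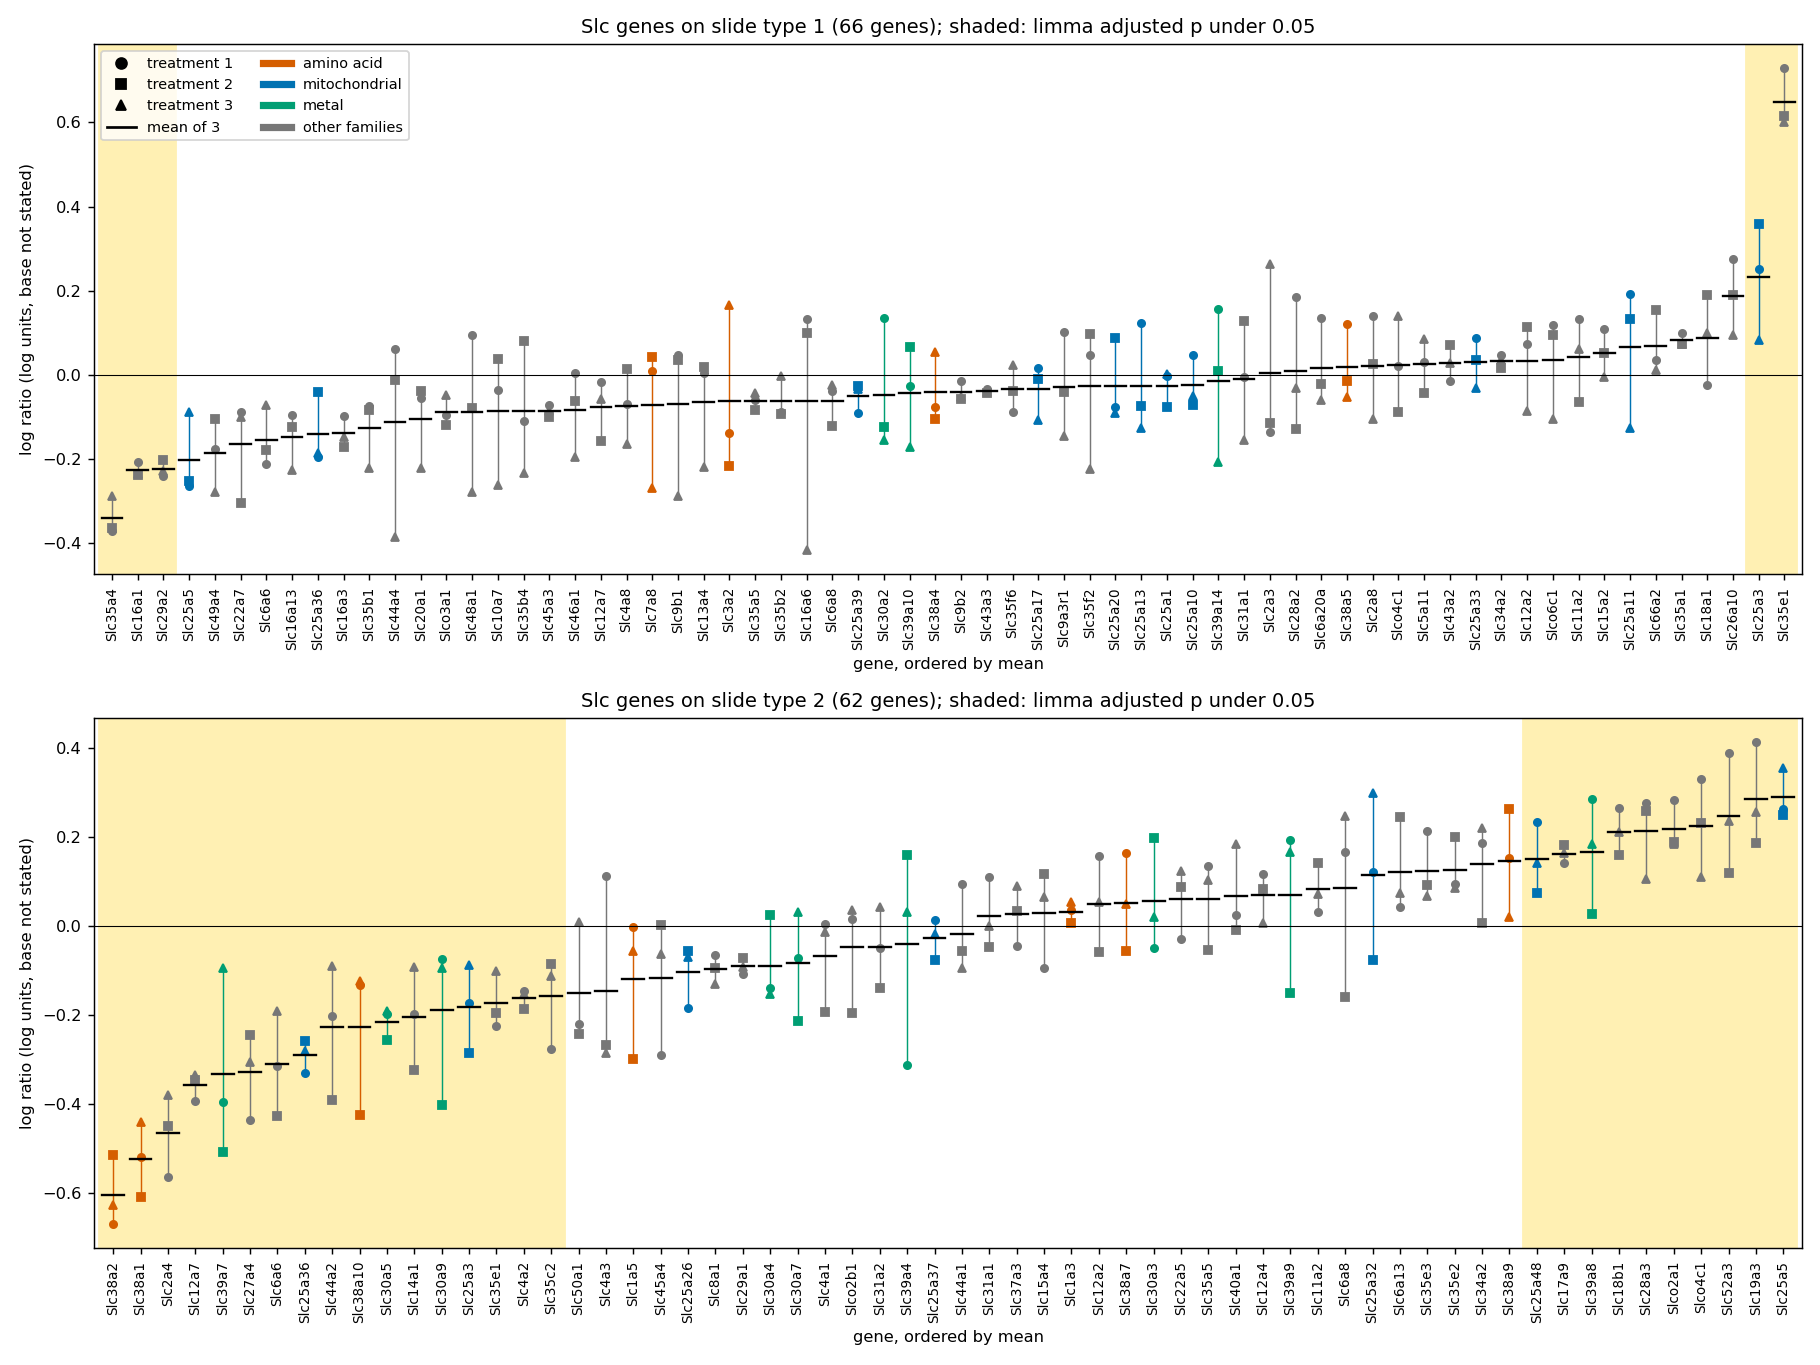
Log ratio of heated against control embryos (vertical axis, log units of unstated base) for each Slc gene on slide type 1 (66 genes, top) and slide type 2 (62 genes, bottom), ordered by mean; points are the 3 treatments, short bars their mean, colours the transporter group, and shading marks the 5 and 27 genes called by limma. Slc35e1 stands alone at the positive end of slide type 1 (0.65), and Slc38a2 (−0.60) and Slc38a1 (−0.52) lie at the negative end of slide type 2.

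Among amino acid transporters, Slc38a2 and Slc38a1 had the most negative means of all Slc genes, and 3 of the 7 members on slide type 2 were called negative (42.9%, against 31.9% of all genes) and 0 positive. Slc38a2, a sodium-coupled transporter of small neutral amino acids, had log ratios of −0.67, −0.52 and −0.63 in treatments 1, 2 and 3. All 3 treatments were on the negative side, with a mean of −0.60 ± 0.08 and a limma adjusted p of 7.97e-07. Slc38a1, a related transporter that carries glutamine, had log ratios of −0.52, −0.61 and −0.44, a mean of −0.52 ± 0.08 and a limma adjusted p of 3.96e-06. The intervals of these means at 95% were −0.73 to −0.48 for Slc38a2 and −0.65 to −0.40 for Slc38a1, so their order is not resolved. Slc38a10, a less studied member of the family, had −0.13, −0.43 and −0.12, a mean of −0.23 ± 0.17 (limma adjusted p = 0.00981), and was no longer called without treatment 2, its most negative value.

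The other amino acid transporters did not pass the test. Slc38a9, a lysosomal arginine sensor, had 0.15, 0.26 and 0.02 (mean 0.15 ± 0.12, limma adjusted p = 0.0565), opposite in sign to Slc38a2 in all 3 treatments. Slc38a7, which exports glutamine from lysosomes, had a mean of 0.05 ± 0.11, so the 5 Slc38 genes of slide type 2 ran from −0.60 to 0.15 around a median of −0.23. The glutamine transporter Slc1a5 had 0.00, −0.30 and −0.06 (mean −0.12 ± 0.16, limma adjusted p = 0.13), and the glutamate transporter Slc1a3 had a mean of 0.032 ± 0.024. Of the 4 on slide type 1, limma called 0 on either side, and 0 had an unadjusted p under 0.05. Slc3a2, the heavy chain that the Slc7 light chains need at the cell surface, had −0.14, −0.22 and 0.17, which lie on both sides of 0; its mean was −0.06 ± 0.20 (limma adjusted p = 0.689), with a 95% interval of −0.23 to 0.11. Slc7a8, Slc38a4 and Slc38a5 had means of −0.07 ± 0.17, −0.04 ± 0.08 and 0.02 ± 0.09. Slc7a5, Slc7a11 and Slc1a4 were not analysed here.

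Genes of the amino acid response, a list of 20 that includes the enzymes of serine and asparagine synthesis and the factor Atf4, were measured for 8 members on slide type 2. Of these, 3 were called negative (37.5%, against 31.9% of all genes) and 1 positive (12.5%, against 18.5%), with a median of −0.068 against −0.049 for all genes. Atf4, the transcription factor that drives this response, had log ratios of −0.36, −0.50 and −0.19 (mean −0.35 ± 0.15, limma adjusted p = 0.000386). Psat1, an enzyme of serine synthesis, had a mean of −0.35 ± 0.10 (limma adjusted p = 0.000257) and the folate enzyme Mthfd2 of −0.15 ± 0.04 (limma adjusted p = 0.0341). The lipoprotein receptor Vldlr was called positive at 0.17 ± 0.19, with treatment 2 at −0.05. It averaged −0.16 where channel 1 held the heated RNA and 0.50 where channel 2 did, while Atf4 and Psat1 were negative in both channel orders. Asparagine synthetase Asns did not pass, with 0.14, −0.22 and 0.05. Of the 5 measured on slide type 1, limma called 0 on either side, and 1 had an unadjusted p under 0.05.

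**Figure D2:**
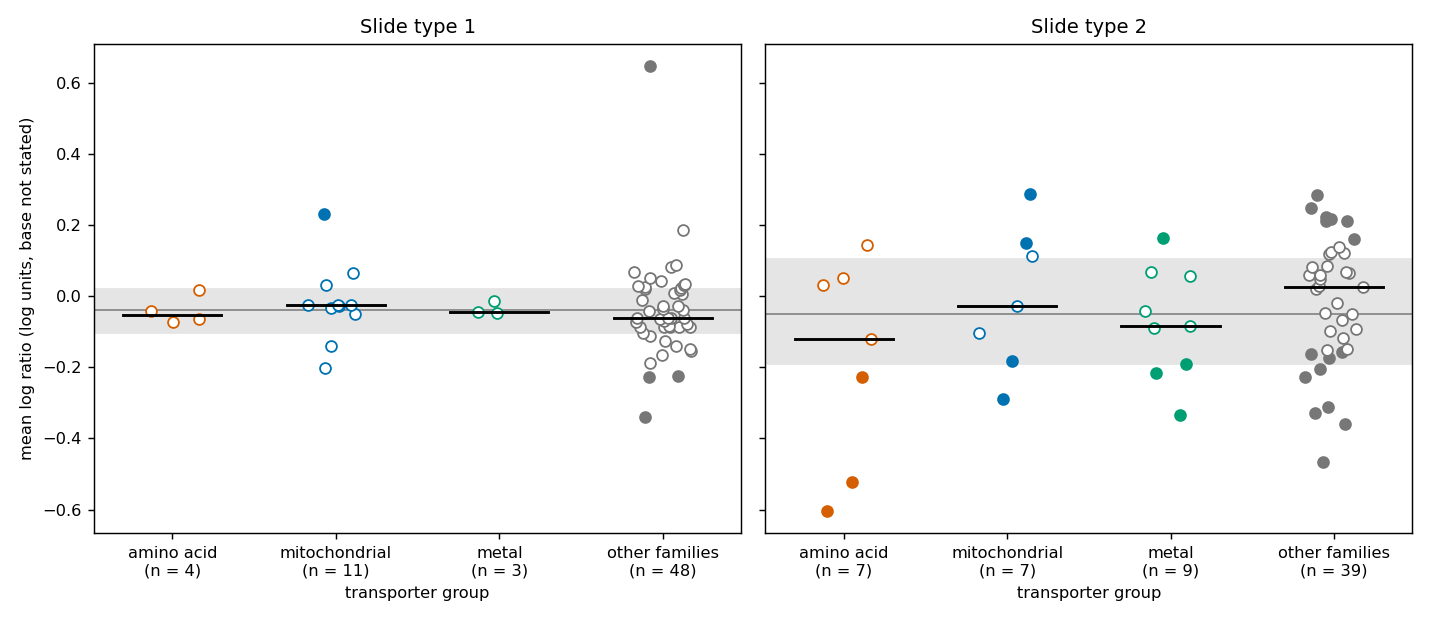
Mean log ratio over 3 treatments (vertical axis, log units of unstated base) of every Slc gene by transporter group on slide type 1 (left) and slide type 2 (right); filled points are called by limma, open points are not, black bars are group medians, and the grey line and band are the median and the middle of all genes, from the lower to the upper quartile (−0.10 to 0.02 and −0.19 to 0.11). The amino acid group on slide type 2 has the lowest median (−0.12), with 2 genes below −0.5.

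Mitochondrial carriers were called in both directions. Slc25a5, the adenine nucleotide carrier that exchanges ADP and ATP, was the most positive Slc gene of slide type 2. Its log ratios were 0.26, 0.25 and 0.36, all positive, with a mean of 0.29 ± 0.06 and a limma adjusted p of 0.000776. Slc25a48 was also called positive, with 0.23, 0.07 and 0.14 (mean 0.15 ± 0.08, limma adjusted p = 0.042), but not without treatment 1, without treatment 3 or with all arrays and the treatment as a random block. Slc25a36, a carrier of pyrimidine nucleotides, was called negative with a narrow spread of −0.33, −0.26 and −0.28 (mean −0.29 ± 0.04, limma adjusted p = 0.000702). The phosphate carrier Slc25a3 was called negative at −0.18 ± 0.10 (limma adjusted p = 0.0187), but not without treatment 1 or without treatment 2. The group thus had 2 of 7 called positive on slide type 2 (28.6%, against 18.5% of all genes) and 2 called negative (28.6%, against 31.9%). Its median was −0.027. The iron importer Slc25a37 (−0.03 ± 0.05), the S-adenosylmethionine carrier Slc25a26 (−0.10 ± 0.07) and Slc25a32 (0.11 ± 0.19) did not pass.

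On slide type 1, 1 of 11 mitochondrial carriers was called positive (9.09%, against 5.73% of all genes) and 0 negative (against 5.65%). The median was −0.025. The called gene was Slc25a3, with 0.25, 0.36 and 0.08 (mean 0.23 ± 0.14, limma adjusted p = 0.0472), and it was no longer called without treatment 1 or without treatment 2. Slc25a5 on this slide type had −0.26, −0.25 and −0.09 (mean −0.20 ± 0.10, limma adjusted p = 0.0576). The other 9, among them the citrate carrier Slc25a1, the oxoglutarate carrier Slc25a11 and the carnitine carrier Slc25a20, had means between −0.14 and 0.07. Slc25a4 was not analysed here.

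Other genes of mitochondrial transport and matrix metabolism, a list of 17, were called on the negative side for 7 of the 9 measured on slide type 2, where 31.9% of all genes were, with a median of −0.22 against −0.049 for all genes. The outer membrane channel Vdac1 had a mean of −0.41 ± 0.09 (limma adjusted p = 5.55e-05), and malate dehydrogenase Mdh2 of −0.36 ± 0.18 (limma adjusted p = 0.00042). The import receptor Tomm70a had −0.35 ± 0.13, while the pyruvate carrier subunit Mpc1 stood at 0.008 ± 0.104 and did not pass. Of the 7 called genes, Got2 and Tomm20 had opposite signs in the 2 channel orders. They averaged 0.05 and 0.005 with the heated RNA in channel 1, and −0.41 each with it in channel 2. Of the 4 on slide type 1, limma called 0 on either side, and 1 (Vdac1, −0.19 ± 0.15) had an unadjusted p under 0.05.

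Of the 9 metal transporters of slide type 2, limma called 3 negative (33.3%, against 31.9% of all genes) and 1 positive (11.1%, against 18.5%), with a median of −0.084, so the shares were near those of the slide type. Slc39a7, which releases zinc from the endoplasmic reticulum into the cytosol, had −0.40, −0.51 and −0.10, a wide spread with all 3 values negative (mean −0.33 ± 0.21, limma adjusted p = 0.00131). Slc30a5, which loads zinc into the secretory pathway, had −0.20, −0.26 and −0.19 (mean −0.22 ± 0.04, limma adjusted p = 0.00535). Slc30a9 had −0.07, −0.40 and −0.09 (mean −0.19 ± 0.18, limma adjusted p = 0.0275), and without treatment 2 it was not called. The positive gene was Slc39a8, an importer of zinc and manganese, with 0.28, 0.03 and 0.18 (mean 0.17 ± 0.13, limma adjusted p = 0.0348), which was not called without treatment 1 or without treatment 3. The 4 called genes thus include both families and both directions. Slc30a4, Slc30a7, Slc30a3, Slc39a4 and Slc39a9 had means between −0.09 and 0.07, and the log ratio of Slc39a4 ran from −0.31 to 0.16.

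On slide type 1 the 3 metal transporters Slc30a2, Slc39a10 and Slc39a14 had means of −0.05 ± 0.16, −0.04 ± 0.12 and −0.01 ± 0.18; 0 were called by limma, and 0 had an unadjusted p under 0.05. Slc30a1 was not analysed here. Of a list of 17 genes for metal storage, uptake and sensing, 9 were measured on slide type 1 and 6 on slide type 2. On slide type 1, 1 of 9 was called negative, where 5.65% of all genes were. On slide type 2, 3 of 6 were called negative, where 31.9% of all genes were. Neither difference was tested. The transferrin receptor Tfrc was called on both, at −0.23 ± 0.12 (limma adjusted p = 0.0419) and −0.27 ± 0.12 (limma adjusted p = 0.00215). The ferritin light chain Ftl1 (−0.28 ± 0.09, limma adjusted p = 0.00118) and the iron sensor Ireb2 (−0.26 ± 0.08, limma adjusted p = 0.0021) were called on slide type 2. With the heated RNA in channel 1 these averaged 0.05 and 0.02, and with it in channel 2 −0.62 and −0.53. Tfrc was negative in both channel orders on both slide types. On slide type 1 Ftl1 had a mean of −0.07 ± 0.08 (limma adjusted p = 0.541) and did not pass. The metal-binding metallothioneins Mt1 (0.00 ± 0.10) and Mt2 (−0.10 ± 0.07), on slide type 1, did not pass. The iron exporter Slc40a1, which the rule counts among other families, had a mean of 0.07 ± 0.10 on slide type 2 and did not pass.

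Transporters of sugars and monocarboxylates included 1 called gene on each slide type, both negative. On slide type 1 this was 1 of 9 genes, where 5.65% of all genes were called negative. On slide type 2 it was 1 of 4, where 31.9% of all genes were. Slc2a4, the insulin-regulated glucose transporter, had −0.57, −0.45 and −0.38 on slide type 2 (mean −0.47 ± 0.09, limma adjusted p = 1.42e-05), the third most negative Slc value. Slc16a1 had −0.21, −0.24 and −0.24 on slide type 1 (mean −0.23 ± 0.02, limma adjusted p = 0.0235), but lay at 0.08 when arrays were not centred. The other Slc16 genes of that slide type, Slc16a3, Slc16a13 and Slc16a6, had means of −0.14 ± 0.04, −0.15 ± 0.07 and −0.06 ± 0.31 and did not pass. The glucose transporter Slc2a3 had −0.13, −0.11 and 0.26, which lie on both sides of 0 (mean 0.006 ± 0.225, limma adjusted p = 0.977, 95% interval −0.17 to 0.18). Slc50a1, a sugar transporter, had −0.22, −0.24 and 0.01 on slide type 2 (mean −0.15 ± 0.14, limma adjusted p = 0.0537).

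Ion and bicarbonate transporters had 2 of 8 called negative on slide type 2, where 31.9% of all genes were, and 0 called positive, against 18.5%. On slide type 1, 0 of 9 were called by limma, and 1 had an unadjusted p under 0.05. Slc12a7, a potassium-chloride cotransporter, had −0.39, −0.35 and −0.34 (mean −0.36 ± 0.03, limma adjusted p = 0.000119). The anion exchanger Slc4a2 had −0.15, −0.19 and −0.15 (mean −0.16 ± 0.02, limma adjusted p = 0.0246), and was not called without treatment 1 or without treatment 3. Slc4a1, the anion exchanger of red cells, had 0.00, −0.19 and −0.01 (mean −0.07 ± 0.11, limma adjusted p = 0.357), and the sodium-calcium exchanger Slc8a1 a mean of −0.10 ± 0.03 (limma adjusted p = 0.16). The largest of slide type 1 was Slc26a10, with 0.28, 0.19 and 0.09 (mean 0.19 ± 0.09, limma adjusted p = 0.0712). Of a list of 13 ion pump genes, which build the gradients that many carriers use, 4 of 4 measured on slide type 2 were called negative, where 31.9% of all genes were, and 0 of 3 on slide type 1, against 5.65%. They were the sodium pump subunit Atp1b3 (−0.50 ± 0.05, limma adjusted p = 4.37e-06), the calcium pumps Atp2a2 (−0.31 ± 0.08) and Atp2b1 (−0.19 ± 0.08), and the pump regulator Fxyd6 (−0.16 ± 0.07). Fxyd6 averaged 0.21 where channel 1 held the heated RNA and −0.53 where channel 2 did. Atp1b3, Atp2a2 and Atp2b1 were negative in both channel orders.

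Transporters of nucleosides, nucleotide sugars and vitamins held 3 of the 5 calls of slide type 1. Of the 12 genes of this class there, 1 was called positive (8.33%, against 5.73% of all genes) and 2 negative (16.7%, against 5.65%). Slc35e1, an orphan member of the nucleotide sugar transporter family, had 0.73, 0.62 and 0.60 (mean 0.65 ± 0.07, limma adjusted p = 8.56e-05). Slc35a4, of the same family, had −0.37, −0.36 and −0.29 (mean −0.34 ± 0.05, limma adjusted p = 0.0032), and lay at −0.037 and was not called when arrays were not centred. The nucleoside transporter Slc29a2 had −0.24, −0.20 and −0.23 (mean −0.22 ± 0.02, limma adjusted p = 0.0255), but lay at 0.08 when arrays were not centred. Each of these 3 genes had its sign on 12 of 12 arrays. The other 9 genes of the class on slide type 1 had means between −0.13 and 0.08.

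On slide type 2, 3 of 9 genes of this class were called positive (33.3%, against 18.5% of all genes) and 2 negative (22.2%, against 31.9%). Their median was 0.12. Slc19a3, which imports thiamine, had 0.41, 0.19 and 0.26 (mean 0.29 ± 0.12, limma adjusted p = 0.00134). The riboflavin transporter Slc52a3 had 0.39, 0.12 and 0.24 (mean 0.25 ± 0.14, limma adjusted p = 0.00416), and the sodium-coupled nucleoside transporter Slc28a3 had 0.28, 0.26 and 0.11 (mean 0.21 ± 0.10, limma adjusted p = 0.00753). Neither was called without treatment 1, and Slc28a3 was also not called with the treatment as a random block. All 3 positive genes had opposite signs in the 2 channel orders. With the heated RNA in channels 1 and 2, Slc19a3 averaged −0.43 and 1.00, Slc52a3 −0.05 and 0.54, and Slc28a3 −0.33 and 0.75. Slc35e1 was called negative here at −0.17 ± 0.06 (limma adjusted p = 0.0202), and Slc35c2 at −0.16 ± 0.10 (limma adjusted p = 0.0372), and both lost their call without treatment 1 and without treatment 3.

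Of the carriers of neurotransmitters, osmolytes and vesicle contents, 2 of 5 were called positive on slide type 2, where 18.5% of all genes were. The negative call there was 1 of 5, where 31.9% of all genes were called negative. These differences were not tested. On slide type 1, 0 of 4 were called by limma, and 1 had an unadjusted p under 0.05. Slc6a6, which takes up the osmolyte taurine, was the negative one, with −0.31, −0.43 and −0.19 (mean −0.31 ± 0.12, limma adjusted p = 0.000724). Slc18b1, a vesicular polyamine transporter, had a mean of 0.21 ± 0.05 (limma adjusted p = 0.00644), and Slc17a9, which loads ATP into vesicles, of 0.16 ± 0.02 (limma adjusted p = 0.0246). Both lost their call without treatment 1 and without treatment 3, and Slc17a9 also with the treatment as a random block. Among the remaining families on slide type 2, 2 of 13 were called positive (15.4%, against 18.5% of all genes) and 3 negative (23.1%, against 31.9%). The positive ones were the prostaglandin transporter Slco2a1, with 0.28, 0.19 and 0.18 (mean 0.22 ± 0.06, limma adjusted p = 0.0054), and the organic anion transporter Slco4c1, with 0.33, 0.23 and 0.11 (mean 0.22 ± 0.11, limma adjusted p = 0.00633). Both lost their call without treatment 1 and when all arrays were fitted with the treatment as a random block. The negative ones were Slc27a4, a fatty acid transport protein (−0.33 ± 0.10, limma adjusted p = 0.000374), the choline transporter Slc44a2 (−0.23 ± 0.15, limma adjusted p = 0.00809) and the urea transporter Slc14a1 (−0.20 ± 0.12, limma adjusted p = 0.0112). Of the 14 remaining genes of slide type 1, limma called 0, and 2 had an unadjusted p under 0.05; the most negative was Slc49a4 at −0.19 ± 0.09 (limma adjusted p = 0.0706).

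The 2 channel orders gave different pictures for many of these genes on slide type 2. The correlation over all probes between the 2 orders of 1 treatment, before averaging, was 0.32, −0.65 and −0.04 in treatments 1, 2 and 3 on slide type 2, and 0.15, 0.07 and 0.52 on slide type 1. Of the 10 Slc genes called positive on slide type 2, 8 (80.0%) had means of opposite sign in the 2 orders, against 53.1% of all positive genes, and of the 17 called negative, 4 (23.5%) did, against 29.4% of all negative genes. This held for 0 of the 5 called Slc genes of slide type 1 and for 1.82% and 1.84% of all its positive and negative genes. The 8 positive genes of slide type 2 with opposite signs were Slc19a3, Slc52a3, Slc28a3, Slc25a48, Slc17a9, Slc18b1, Slco2a1 and Slco4c1. The 4 negative ones were Slc44a2, Slc38a10, Slc30a9 and Slc4a2. Slc19a3 averaged −0.43 where channel 1 held the heated RNA and 1.00 where channel 2 did, and Slco4c1 −0.53 and 0.98. All 17 called negative Slc genes of slide type 2 were more negative with the heated RNA in channel 2, as were 1188 of the 1299 called negative genes in all. What part the channel order had in these values was not tested.

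**Figure D3:**
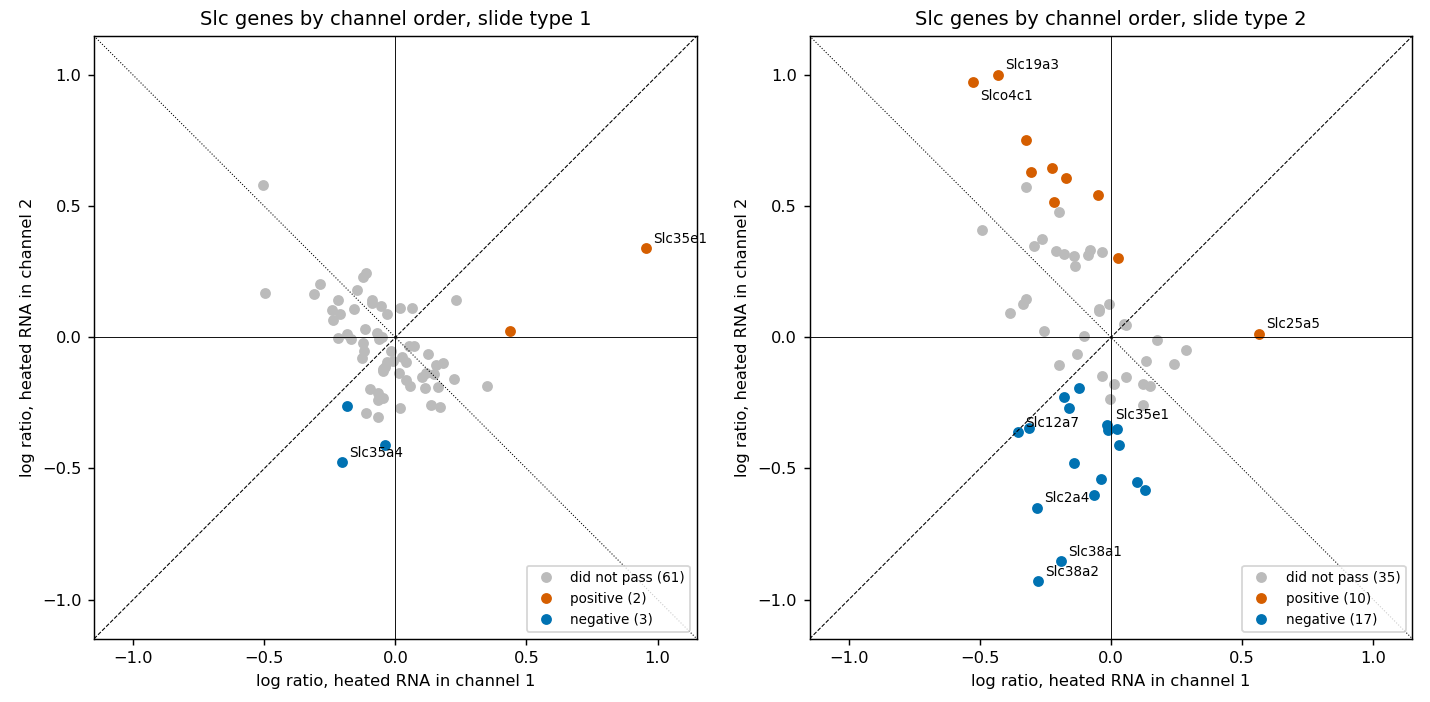
Mean log ratio of each Slc gene over arrays with the heated RNA in channel 1 (horizontal axis) and in channel 2 (vertical axis), in log units of unstated base after the sign was turned, for slide type 1 (left) and slide type 2 (right); colours mark calls by limma, the dashed line equal values and the dotted line values of opposite sign and equal size. On slide type 2, 8 of 10 called positive genes lie at the upper left, where the orders have opposite signs, while Slc12a7 lies on the dashed line at −0.35 and −0.36.

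Single arrays show how far some of these calls differ between the 2 orders. Slc35e1 on slide type 1 ran from 0.69 to 1.18 on the 6 arrays with the heated RNA in channel 1 and from 0.16 to 0.48 on the other 6. Slc12a7 was negative on 12 of 12 arrays of slide type 2, with means of −0.35 and −0.36 in the 2 orders. For Slc38a2 the 2 arrays of treatment 2 with the heated RNA in channel 1 read 0.33 and 0.08, those with it in channel 2 read −1.22 and −1.25, and the other 8 arrays lay between −0.95 and −0.31. Slc38a1 had the same split in treatment 2, with 0.23 and 0.12 against −1.35 and −1.44, and −0.72 to −0.11 on the other 8. Slc25a5, the most positive Slc gene of slide type 2, averaged 0.56 where channel 1 held the heated RNA and 0.01 where channel 2 did. With 1 channel order alone, limma called 0 Slc genes of slide type 2 (heated RNA in channel 1, 4 with unadjusted p under 0.05) or 1, Slc19a3 (channel 2, 18 with unadjusted p under 0.05). Of all 4075 genes of the slide type, these fits called 50 and 24.

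**Figure D4:**
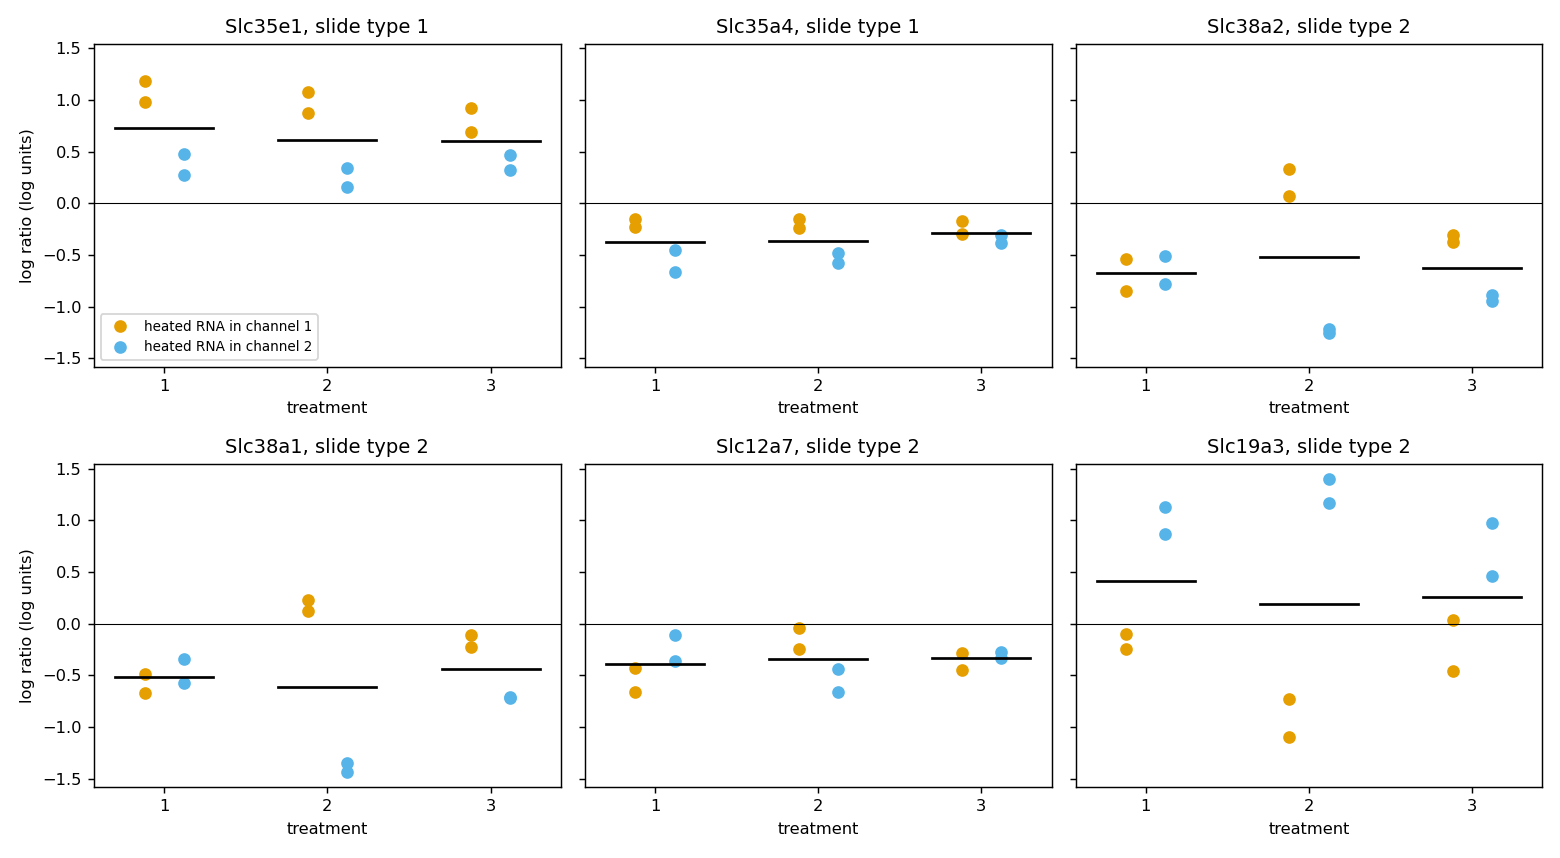
Log ratio (vertical axis, log units of unstated base, sign turned) on each of the 12 arrays of a slide type for 6 Slc genes, by treatment (horizontal axis); colours mark the channel of the heated RNA and bars the mean of the treatment's 4 arrays. Slc35e1, Slc35a4 and Slc12a7 keep their sign on 12 of 12 arrays, Slc38a2 and Slc38a1 change sign with channel order in treatment 2, and the arrays of Slc19a3 with the heated RNA in channel 2 lie from 0.47 to 1.40.

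Leaving out 1 treatment showed which calls rest on all 3. Of the 27 called Slc genes of slide type 2, 13 were called in each of the 3 fits without 1 treatment. These were 11 of the 17 negative ones, Slc38a2, Slc38a1, Slc2a4, Slc12a7, Slc39a7, Slc27a4, Slc6a6, Slc25a36, Slc44a2, Slc30a5 and Slc14a1, and 2 of the 10 positive ones, Slc25a5 and Slc19a3. Without treatment 1 the positive calls numbered 2, without treatment 2 14, and without treatment 3 6. Slc calls of both sides numbered 16, 30 and 21 in these fits, against 27 with all treatments. Over all genes of the slide type the calls numbered 1227, 2209 and 1430, against 2052. How many of all called genes kept their call in each fit is not given here. For slide type 1, Slc35e1 was called in each of the 3 fits, and without treatment 1 it was the 1 Slc gene called. Over all genes of that slide type the fit without treatment 1 called 178, against 437 with all treatments.

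Of the 13 genes on both slide types, 7 had means on the same side and 6 on opposite sides, and the 2 called on both, Slc25a3 and Slc35e1, were called on opposite sides. Slc35e1 was at 0.65 ± 0.07 on slide type 1 and −0.17 ± 0.06 on slide type 2, and Slc25a3 at 0.23 ± 0.14 and −0.18 ± 0.10. Slc25a5 also differed in sign, at −0.20 ± 0.10 (not called) and 0.29 ± 0.06 (called). Slc6a6 (−0.15 ± 0.07 and −0.31 ± 0.12), Slc12a7 (−0.08 ± 0.07 and −0.36 ± 0.03), Slc25a36 (−0.14 ± 0.09 and −0.29 ± 0.04) and Slco4c1 (0.03 ± 0.11 and 0.22 ± 0.11) kept their side and were called on slide type 2 alone. The creatine transporter Slc6a8, the copper importer Slc31a1, the metal importer Slc11a2, the chloride cotransporter Slc12a2, Slc34a2 and Slc35a5 were called on neither. The slide types carry different probes and were normalized apart, so the difference between them was not tested.

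**Figure D5:**
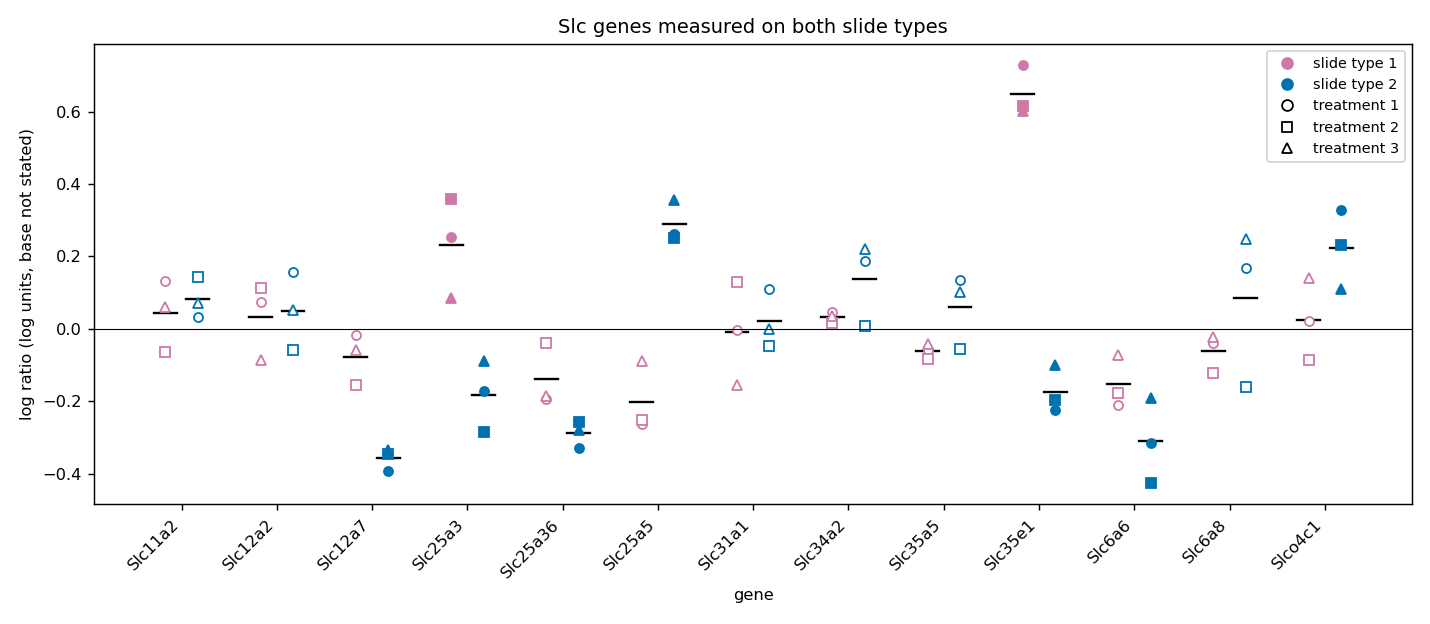
Log ratio (vertical axis, log units of unstated base) of the 13 Slc genes measured on both slide types, with the 3 treatments as points, their mean as a bar and filled points where limma called the gene. The points of Slc35e1, Slc25a3 and Slc25a5 lie on opposite sides of 0 on the 2 slide types, and those of Slc25a36 and Slc6a6 lie below 0 on both.

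In total RNA of embryos a lower value can come from fewer cells of a type or from less RNA per cell, and these cannot be told apart here. Markers of cell types that the embryos could hold were few on these slides. Of 14 erythroid markers, 0 of 1 and 0 of 4 measured were called by limma on slide types 1 and 2. On slide type 2 embryonic globin Hbb-y was at −0.14 ± 0.01 (limma adjusted p = 0.0543), averaging 0.12 and −0.39 with the heated RNA in channels 1 and 2. Hba-x (−0.12 ± 0.12) and Hbb-b1 (−0.02 ± 0.08) also had negative means there, and Alas2 (0.09 ± 0.06) a positive one. Gata1 on slide type 1 was at 0.06 ± 0.06. Of 12 yolk sac endoderm markers, 0 of 5 and 1 of 1 were called, the latter being Dab2 at −0.17 ± 0.15 (limma adjusted p = 0.0311). The neural markers Tubb3 (−0.21 ± 0.04, limma adjusted p = 0.0359, slide type 1) and Gap43 (−0.29 ± 0.13, limma adjusted p = 0.0015, slide type 2) were called negative, and Nes (−0.11 ± 0.05) was not. Of 8 trophoblast markers 1 was measured, Hand1 at −0.20 ± 0.16 on slide type 1, and it was not called. The part of these cell types in the Slc values was not tested.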

How the data were processed

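Total RNA was measured on 24 arrays with 2 channels, 12 per slide type, each with 7680 probes. The deposited values are the authors' log ratios and are treated as a score; no source used here states their base, numerator, background correction or normalization. Each array was turned in sign by the channel of the heated RNA, as the labels name it, and then had the median of all its probes subtracted. For each treatment and slide type the 4 arrays were averaged with equal weight for both channel orders, probes with the same single symbol were averaged per gene (12 member values had several; those of Slc34a2 on slide type 2, at 0.03 and 0.24, lay over 0.2 apart), and the 3 treatments were fitted per slide type with limma 3.58.1 (R 4.3.3, lmFit and eBayes on an intercept). Symbols come from the platform annotation; all 115 matched a RefSeq gene. Spot intensities were not used, hence dim and saturated spots remain in the values. The scripts were tested on simulated data. Named genes were the 12 largest called values per slide type with 1 sign in all 3 treatments, the 2 smallest p-values per class, the genes on both slide types and a set of transporters fixed by name; further genes were named after their values were seen. Members and lists were chosen with earlier results of these data known. Alternatives tried were other centring, 1 channel order, all arrays with the treatment as a random block, the median of 4 arrays, 1 probe per gene, a robust prior, a test against 0.58 units, treatments scaled to 1 SD and leaving out each treatment.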

Additional observations from a re-analysis of the deposited data

How the results depend on the processing

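Heated and control RNA were set against each other within each array, so every log ratio is already a paired comparison. No pairing across slide types was made, because the 2 types that share treatment numbers carry different probes. The treatment entered as a random block over the single arrays in the setting of that name below. For slide type 1, with 2 Slc genes called positive and 3 negative, the positive count was 6 with only the arrays that had the heated RNA in channel 1, 1 with only channel 2, 1 with the first probe of each gene, and 0 when tested against 0.58 units. The negative count was 0 without centring, 1 with centring on probes with 1 symbol, 9 with only channel 1, 8 with all arrays and the treatment as a random block, and 0 against 0.58 units. For slide type 2, with 10 positive and 17 negative, the positive count was 0 without centring, 19 with centring on probes with 1 symbol, 0 with only channel 1, 1 with only channel 2, 6 with the random block and 0 against 0.58 units. The negative count there was 1 without centring (Slc38a2), 10 with centring on probes with 1 symbol, and 0 with only channel 1, with only channel 2 and against 0.58 units. Against 0.58 units limma also gave 0 Slc genes an unadjusted p under 0.05, and called 15 and 32 genes of all. Leaving out 1 treatment gave 1 to 3 positive and 0 to 4 negative calls on slide type 1, and 2 to 14 positive and 14 to 16 negative calls on slide type 2. Over all genes these fits called 178 to 440 on slide type 1 and 1227 to 2209 on slide type 2, against 437 and 2052. Without centring the counts of all genes were 268 and 141, and with centring on probes with 1 symbol 373 and 2110. With only channel 1 they were 839 and 50, with only channel 2 194 and 24, and with the random block 706 and 2085. Without centring the median of all genes moved by 0.30 on slide type 1 and 0.083 on slide type 2. The median of 4 arrays, a robust prior and scaled treatments kept all 24 named calls. Where no value above shows it, the cause of a change was not tested.

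Except where stated, the sign changes below are those of the 55 values named by the rules above. Genes named after their values were seen are not among the 55. Of these values, 2 that were called changed sign without centring, Slc16a1 (0.078) and Slc29a2 (0.081) of slide type 1. In the same setting 16 that were not called did: Slc39a10 (0.26), Slc6a6 (0.15), Slc6a8 (0.24), Slc7a8 (0.23), Slc35a5 (0.24), Slc31a1 (0.29), Slc30a2 (0.26), Slc3a2 (0.24), Slc49a4 (0.12), Slc25a5 (0.10), Slc12a7 (0.23), Slc16a13 (0.16), Slc20a1 (0.20), Slc25a36 (0.16) and Slc22a7 (0.14) of slide type 1, and Slc4a1 (0.015) of slide type 2. With only the arrays that had the heated RNA in channel 1, 7 called values of slide type 2 among the 55 changed sign: Slc19a3 (−0.43), Slc18b1 (−0.22), Slc52a3 (−0.049), Slco2a1 (−0.17), Slco4c1 (−0.53), Slc44a2 (0.13) and Slc4a2 (0.023). Of the called genes of slide type 2 outside the 55, Slc28a3 (−0.33), Slc17a9 (−0.30), Slc25a48 (−0.22), Slc38a10 (0.098) and Slc30a9 (0.031) also changed sign. So did 9 of the 55 that were not called, Slc12a2 (−0.054), Slc30a2 (0.17), Slc31a1 (0.12), Slc35a5 (0.013) and Slc6a8 (0.040) of slide type 1 and Slc34a2 (−0.20), Slc35a5 (−0.21), Slc4a1 (0.12) and Slc6a8 (−0.14) of slide type 2. With only channel 2, 9 that were not called changed sign, Slc11a2 (−0.10), Slc22a7 (0.17), Slc2a3 (−0.14), Slc34a2 (−0.16), Slc39a10 (0.031), Slc7a8 (0.17) and Slco4c1 (−0.10) of slide type 1 and Slc11a2 (−0.011) and Slc31a1 (−0.092) of slide type 2. The other sign changes were of values near 0 that were not called. With the median of 4 arrays these were Slc12a2 (−0.013), Slc2a3 (−0.00090), Slc30a2 (0.028) and Slc31a1 (0.021) of slide type 1 and Slc31a1 (−0.023) of slide type 2. With centring on probes with 1 symbol they were Slc31a1 of slide type 1 (0.033) and Slc4a1 of slide type 2 (0.0080), and with scaled treatments Slc2a3 (−0.0014). Leaving out 1 treatment changed the sign of 9 values of slide type 1, with ranges of −0.0019 to 0.097 for Slc11a2, −0.0063 to 0.093 for Slc12a2, −0.12 to 0.076 for Slc2a3, −0.14 to 0.0056 for Slc30a2, −0.079 to 0.062 for Slc31a1, −0.098 to 0.020 for Slc39a10, −0.18 to 0.014 for Slc3a2, −0.13 to 0.027 for Slc7a8 and −0.033 to 0.081 for Slco4c1. It also changed Slc12a2 (−0.0030 to 0.10) and Slc31a1 (−0.024 to 0.056) of slide type 2.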
